A study of Arabidopsis thaliana with 6 samples.

Results

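Pectin is laid down, trimmed and broken by several families of enzymes, and 36 *Arabidopsis thaliana* genes of these families were followed in RNA from inflorescences. They were taken by gene identifier from a table of 21799 genes with values: 11 genes for pectin methylesterases, 2 for inhibitors of these enzymes, 7 for polygalacturonases, 13 for pectate lyases or pectate lyase-like proteins and 3 for galacturonosyltransferases (GAUTs). All 36 were in the table and in the reference annotation, and all 36 passed the filter on low values. The samples were 3 replicates of wild type (Col-0) and 3 replicates of a *bee1 bee3 stk ces-4* line, here the mutant. For all of them seeds were kept for 2 days at 4 °C, and plants were grown at 22 °C in long days. Whole inflorescences were harvested up to stage 12 of the pistil, with no further treatment. Wild type carries none of the 4 mutations, and the mutant carries all of them at once, so that the share of each mutation in a difference cannot be told apart. Each replicate pooled several plants, and p-values measure the spread between these pools.

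Homogalacturonan, the main pectin of the primary wall, is made in the Golgi by GAUT enzymes and is exported with most of its acid groups methylated. In the wall, pectin methylesterases remove the methyl groups and are held back by small inhibitor proteins. The demethylated chain may be cross-linked by calcium, or cut by polygalacturonases and pectate lyases. In the flower these enzymes act in the separation of pollen grains, in anther opening and in the wall of the pollen tube, and the transmitting tract through which the tube grows is rich in pectin. *STK* encodes a MADS-domain factor, a class that binds the CArG box, and *CES*, *BEE1* and *BEE3* encode bHLH factors, a class that binds the E-box CANNTG and its form, the G-box CACGTG. The comparison asks whether transcripts of the pectin genes differ between inflorescences of wild type and of this mutant.

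Levels are given in CPM, read counts that the authors scaled to a common library size, and 3 reads, the smallest amount taken as detectable, were worth 0.137 to 0.185 CPM over depths of 15.9 to 21.2 M reads on the listed genes. These limits cover counting error only. Where genes are ranked by level, the order holds per kb of annotated exons. A difference is the mutant mean minus the wild-type mean of log2(CPM + 0.5), a scale on which low genes show less than their full change, and it was tested with limma over 21287 genes. Genes with an adjusted p under 0.05, by the Benjamini-Hochberg method over all tested genes, count as called. The 4 mutated genes were each called lower in the mutant. *STK* was at 19.9% of its wild-type mean, *BEE1* at 25.2%, *CES* at 4.86% and *BEE3* at 3.54%. The floral organ identity genes *AP1*, *AP3*, *PI*, *AG* and *SEP3*, summed to 662 to 754 CPM in wild type, and in the mutant to 743 to 806 CPM. The RNA comes from whole inflorescences, in which fewer cells of a type and less RNA per cell cannot be told apart.

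None of the 36 pectin genes was called in either direction by limma, while the paper's own edgeR test called *PME58* lower. Over all tested genes 0.564% were called lower in the mutant and 0.132% higher. The smallest adjusted p among the 36 was 0.0620 (limma), for the pectate lyase gene *AT1G67750*. Without adjustment 6 of the 36 had a p under 0.05, or 16.7%, beside 9.31% of all tested genes. The 3 mutant values lay wholly above or wholly below the 3 wild-type values in 8 of the 36, beside 14.3% of all tested genes. In 24 of the 36 the fitted difference was above 0 and in 12 it was below 0, beside 11082 of all 21287 tested genes above 0. The median was 0.08, beside a median of 0.01 over all tested genes. The signs were split 24 to 12 under upper quartile scaling and equal column totals too, but 16 to 20 without wild-type replicate 2 and 29 to 7 without wild-type replicate 1 or mutant replicate 1. Wild-type replicate 2 had the lowest sum of late pollen markers and the highest sum of tapetum markers, which are given with the pollen genes. Without it no member was called and 5 had an unadjusted p under 0.05, beside 8.77% of all tested genes.

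The upstream sequence of 3 genes is shown because the comparison turns on them: *AT1G67750* and *PME58*, the members nearest to a call on either side of 0, and *AT3G59850*, a pectin lyase-like gene that is no member and was the only called gene of the wider pectin families. The windows end at the base before the annotated gene start in TAIR10.1 (RefSeq) and are written 5′ to 3′ on the strand of the gene, with every E-box in capitals. The window of *AT1G67750* is chr1:25401214-25401513 on the plus strand and holds 8 E-boxes. That of *PME58* is chr5:19943016-19943180 on the minus strand, has 165 bases because the neighbouring gene on the same strand, *AT5G49190*, ends there, and holds no E-box. That of *AT3G59850* is chr3:22111733-22112032 on the minus strand and holds 1.
*AT1G67750*: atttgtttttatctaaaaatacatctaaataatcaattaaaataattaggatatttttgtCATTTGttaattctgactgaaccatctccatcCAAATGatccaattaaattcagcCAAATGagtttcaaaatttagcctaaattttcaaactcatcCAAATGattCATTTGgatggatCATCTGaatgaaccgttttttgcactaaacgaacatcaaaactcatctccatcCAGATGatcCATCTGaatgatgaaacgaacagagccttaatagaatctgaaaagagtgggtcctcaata
*PME58*: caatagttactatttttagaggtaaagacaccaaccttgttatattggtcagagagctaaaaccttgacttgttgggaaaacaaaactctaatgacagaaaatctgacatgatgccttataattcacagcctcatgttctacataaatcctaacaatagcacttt
*AT3G59850*: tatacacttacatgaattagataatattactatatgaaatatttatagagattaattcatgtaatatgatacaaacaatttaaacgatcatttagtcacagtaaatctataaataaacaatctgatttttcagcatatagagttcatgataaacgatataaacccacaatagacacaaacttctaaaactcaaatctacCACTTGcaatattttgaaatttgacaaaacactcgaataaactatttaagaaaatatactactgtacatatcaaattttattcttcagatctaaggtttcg

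Motifs were searched on both strands in the 300 bases before the start of 21100 tested genes, and the G-box is counted among the E-boxes too. An E-box was found in 24 of the 36 windows of the members, or 66.67%, and in 62.28% of all windows. A G-box was found in 2 of the 36, those of *AT3G27400* and *AT5G63180*, and in 8% of all windows. The CArG box was found in 3 of the 36, those of *VGDH1*, *AT5G15110* and *GAUT1*, and in 3.128% of all windows. At least 8 E-boxes were found in 1 of all 21100 windows, that of *AT1G67750*, where CATTTG and its reverse complement CAAATG recur. The cut-off of 8 is the count of this same window, and a bearing of these boxes on the level of the gene was not tested. A match is a run of letters and not a known binding site.

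Beginning with synthesis, the 3 GAUT genes were at similar levels in both genotypes. *GAUT8* (*AT3G25140*), also called *QUA1* and needed for normal homogalacturonan content and cell adhesion, was measured at 140.2, 135 and 122 CPM in wild-type replicates 1, 2 and 3 and at 133, 143 and 148 CPM in the mutant replicates. *GAUT1* (*AT3G61130*), the catalytic subunit of a homogalacturonan-making complex, had 103, 112 and 82.2 CPM in wild type against 98.6, 122 and 108 CPM in the mutant. *GAUT12* (*AT5G54690*), known from secondary walls, was the lowest of the 3, with 12.9, 16.6 and 9.96 CPM and 10.5, 14.6 and 14.7 CPM. The groups overlapped in all 3 genes. The differences were 0.10, 0.15 and 0.03, with 95% intervals of the fold change of 0.932 to 1.23, 0.912 to 1.35 and 0.753 to 1.38 in the same order, so that a 1.5-fold difference lay outside each interval.

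Among the 11 methylesterase genes, *PME58* (*AT5G49180*) had the lowest mutant level relative to wild type, and none was called. *PME58*, known for demethylating the pectin of seed coat mucilage, lies on chromosome 5 from 19940462 to 19943015 (TAIR10.1). It was measured at 43.3, 31.1 and 30.7 CPM in wild type against 21.5, 19.4 and 24.9 CPM in the mutant, and every mutant sample was below every wild-type sample. The mutant mean, 22.0 ± 2.77 CPM (SD, n = 3), was 62.7% of the wild-type mean, 35.0 ± 7.17 CPM (SD, n = 3). The difference was -0.65 (SE 0.15, limma adjusted p = 0.135), with a 95% interval of the fold change of 0.505 to 0.804 before adjustment. Wild-type replicate 1 was the highest sample, and without it the difference was -0.49. Over the alternative settings its limma adjusted p ran from 0.0850 to 0.477. In the paper, an edgeR quasi-likelihood test called *PME58* lower in the mutant at an FDR under 0.05, so the call depends on the test.

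*PME61* (*AT3G59010*) was also lower in all 3 mutant samples, at 5.96, 6.10 and 5.54 CPM, than in the wild-type samples, at 6.81, 8.45 and 6.73 CPM. Its difference was -0.29 (SE 0.14, limma adjusted p = 0.573). *PME5* (*AT5G47500*), a methylesterase of the shoot apex and young flowers, leaned the other way, with 95.9, 89.1 and 102 CPM in wild type against 128, 116 and 98.8 CPM in the mutant. Mutant replicate 3 lay among the wild-type samples, and the difference of 0.25 (SE 0.11) had a limma adjusted p of 0.516.

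The remaining methylesterases overlapped between genotypes. *PME3* (*AT3G14310*), a methylesterase active in many tissues, was at 154 ± 12.4 CPM in wild type against 153 ± 21.4 CPM in the mutant (SD, n = 3 each). *PME1* (*AT1G53840*) was at 134 ± 25.2 CPM in wild type against 133 ± 18.1 CPM in the mutant (SD, n = 3 each). Its neighbour *PME2* (*AT1G53830*), which begins upstream of it on chromosome 1 with 320 bases between the annotated genes, was far lower, at 7.35 ± 2.10 CPM in wild type against 10.003 ± 1.33 CPM in the mutant (SD, n = 3 each). Per kb of annotated exons the wild-type mean of *PME1* was 16.7 times that of *PME2*. The mutant mean was 12.1 times that of *PME2*. The difference of *PME2* was 0.45 (SE 0.20, limma adjusted p = 0.537), and its highest wild-type sample, 9.43 CPM, lay above its lowest mutant sample, 8.80 CPM. *AT1G23200* was at 19.2 ± 3.70 CPM in wild type against 19.0 ± 3.45 CPM in the mutant (SD, n = 3 each).

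The pollen methylesterases were the most abundant of this family. *VGD1* (*AT2G47040*), which pollen tubes need for growth through the style and transmitting tract, gave 1747, 1366 and 1849.5 CPM in wild type against 1519, 1782 and 1524 CPM in the mutant. Its nearest homologue *VGDH1* (*AT2G47030*) gave 613, 421 and 704 CPM and 559, 629 and 564 CPM. *PPME1* (*AT1G69940*), which shapes the pollen tube tip, gave 658, 537 and 703 CPM and 664, 702 and 570.2 CPM. In each of the 3 the lowest of the 6 samples was wild-type replicate 2 and the groups overlapped. The differences were -0.03, 0.04 and 0.03.

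*VGD1* and *VGDH1* lie in tandem on the minus strand of chromosome 2, with 1368 bases between them, and their coding sequences match at 1613 of 1758 aligned bases. Coding bases 45 to 144 of each are shown because the levels of the pair rest on bases such as these, with the 8 differing bases in capitals (TAIR10.1, RefSeq).
*VGD1*: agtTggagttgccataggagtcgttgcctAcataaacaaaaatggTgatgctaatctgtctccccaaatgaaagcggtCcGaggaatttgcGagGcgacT
*VGDH1*: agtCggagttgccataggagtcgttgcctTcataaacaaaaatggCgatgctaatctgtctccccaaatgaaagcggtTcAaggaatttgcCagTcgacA
Reads that match both copies were divided between them by RSEM, so the split between the 2 genes is less certain than their sum. Per kb of exons the mean of *VGD1* was 2.86 times that of *VGDH1* in wild type. In the mutant it was 2.76 times. The next most alike members, *AT3G07010* and *AT5G48900*, shared 81.98% of the longer coding sequence.

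Both inhibitor genes are known from pollen and overlapped between genotypes. *PMEI1* (*AT1G48020*) was measured at 58.6, 40.3 and 73.9 CPM in wild type against 46.3, 57.5 and 57.4 CPM in the mutant. *PMEI2* (*AT3G17220*), whose protein is found at the pollen tube tip, was lower, at 8.42, 5.73 and 6.51 CPM and 7.33, 7.31 and 6.999 CPM. Wild-type replicate 2 was the lowest sample for both. The differences were -0.06 (SE 0.19) and 0.08 (SE 0.15), with limma adjusted p of 0.961 and 0.935. Without wild-type replicate 2 the difference of *PMEI1* was -0.30.

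Among the 7 polygalacturonase genes the fitted difference was above 0 in 6 and below 0 in *PGX1* (*AT3G26610*), known for a part in cell expansion, and none was called. Without wild-type replicate 2 it was above 0 in 3 of the 7. *PGX1* was the lowest of all 36, at 1.15, 0.863 and 0.753 CPM in wild type against 0.596, 0.460 and 0.554 CPM in the mutant. Every mutant sample was below every wild-type sample, and as few as 8 reads stood behind a value. The difference was -0.45 (SE 0.21, limma adjusted p = 0.565). On the log2(CPM + 0.5) scale the fold change had a 95% interval of 0.530 to 1.01. With a pseudocount of 0.1 CPM the difference was -0.67. *PGA4* (*AT1G02790*), a pollen polygalacturonase, stood at the other end, with 1485, 1213 and 1577 CPM in wild type against 1341, 1631 and 1449.5 CPM in the mutant. Its groups overlapped, with a difference of 0.05.

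*AT1G48100* had the widest spread of the 36. It was measured at 122, 42.4 and 113 CPM in wild type against 115, 144 and 89.7 CPM in the mutant, so wild-type replicate 2 was far below the other 5 samples. The difference was 0.45 (SE 0.35, limma adjusted p = 0.783). Its fold change interval of 0.789 to 2.36 was, on the log2(CPM + 0.5) scale, the only one among the 36 to reach beyond 2-fold. Without wild-type replicate 2 the difference was -0.04.

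*QRT1*, *QRT2* and *QRT3* are needed for the release of pollen grains from the tetrad, the first as a methylesterase and the others as polygalacturonases. Their levels differed widely. *QRT3* (*AT4G20050*) was at 90.3 ± 19.0 CPM in wild type against 103 ± 13.7 CPM in the mutant (SD, n = 3 each). *QRT1* (*AT5G55590*) was measured at 3.73, 4.13 and 2.69 CPM in wild type against 4.95, 4.95 and 2.97 CPM in the mutant, the lowest of the methylesterases. *QRT2* (*AT3G07970*) was lower again, at 1.76 ± 0.432 CPM in wild type against 2.26 ± 0.594 CPM in the mutant (SD, n = 3 each). The groups overlapped in each, and the differences were 0.24, 0.28 and 0.21 in numerical order, with limma adjusted p of 0.823, 0.785 and 0.772. *ADPG1* (*AT3G57510*) and *ADPG2* (*AT2G41850*), which act in fruit and, with *QRT2*, in anther opening, overlapped between genotypes too. *ADPG1* was at 16.1 ± 2.48 CPM in wild type against 19.3 ± 2.83 CPM in the mutant (SD, n = 3 each). *ADPG2* was at 1.37 ± 0.450 CPM in wild type against 1.44 ± 0.343 CPM in the mutant (SD, n = 3 each).

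The 13 pectate lyase genes held 4 of the 6 members with an unadjusted p under 0.05. These 4 were 30.8% of the 13, beside 9.31% of all tested genes. *AT1G67750*, on chromosome 1 from 25401514 to 25403595 (TAIR10.1), was measured at 110.0, 99.9 and 102 CPM in wild type against 136, 146 and 136 CPM in the mutant. Every mutant sample was above every wild-type sample, and the spread within each genotype was small. Its mutant mean reached 134% of that in wild type, with a difference of 0.42 (SE 0.08, limma adjusted p = 0.0620) and a fold change interval of 1.18 to 1.52 before adjustment. Leaving out each sample in turn gave differences of 0.38 to 0.46. Over all alternatives the limma adjusted p ran from 0.0555 to 0.291.

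The mutant samples were also all above wild type in *AT4G13710* and *AT4G24780*, both annotated as pectin lyase-like. *AT4G13710* gave 48.5, 44.8 and 48.6 CPM in wild type against 56.6, 62.9 and 55.9 CPM in the mutant. Its difference was 0.30 (SE 0.08, limma adjusted p = 0.237). *AT4G24780* gave 158, 114 and 144 CPM and 177, 182 and 169 CPM, with wild-type replicate 2 the lowest by a clear margin. Its difference was 0.36 (SE 0.12, limma adjusted p = 0.339) and, without wild-type replicate 2, 0.22.

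A pair of lyase genes lay below wild type in all 3 mutant samples. *PMR6* (*AT3G54920*), whose loss makes plants resistant to powdery mildew, was measured at 126, 156 and 114 CPM in wild type against 114, 82.9 and 109.8 CPM in the mutant. Its groups nearly touched, at 114.1 and 113.6 CPM, and the difference was -0.37 (SE 0.15, limma adjusted p = 0.462). Without mutant replicate 2, its lowest sample, the difference was -0.23. *AT3G27400*, the lowest lyase gene, gave 3.04, 2.34 and 2.15 CPM in wild type against 2.02, 1.78 and 1.76 CPM in the mutant, a difference of -0.35 (SE 0.18, limma adjusted p = 0.615).

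The other 8 lyase genes overlapped between genotypes. *AT3G01270* was the most abundant lyase gene, at 1051, 850.2 and 1157 CPM in wild type against 868, 1109.6 and 942 CPM in the mutant. *AT1G04680* was at 184 ± 18.1 CPM in wild type against 199.6 ± 12.2 CPM in the mutant (SD, n = 3 each). *AT5G48900* was at 116 ± 19.1 CPM in wild type against 137 ± 16.98 CPM in the mutant (SD, n = 3 each). *AT3G07010* was at 129 ± 19.5 CPM in wild type against 136 ± 4.48 CPM in the mutant (SD, n = 3 each). *AT5G63180* was the lowest of these 8, at 18.8 ± 2.86 CPM in wild type against 18.2 ± 1.31 CPM in the mutant (SD, n = 3 each). The differences of the 5 were -0.06, 0.12, 0.24, 0.08 and -0.04 in the order named, and none had an unadjusted p under 0.05. The last 3 of the 8, *AT59* (*AT1G14420*), *AT5G15110* and *AT2G02720*, were listed as pollen genes and are given with them.

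**Figure D1:**
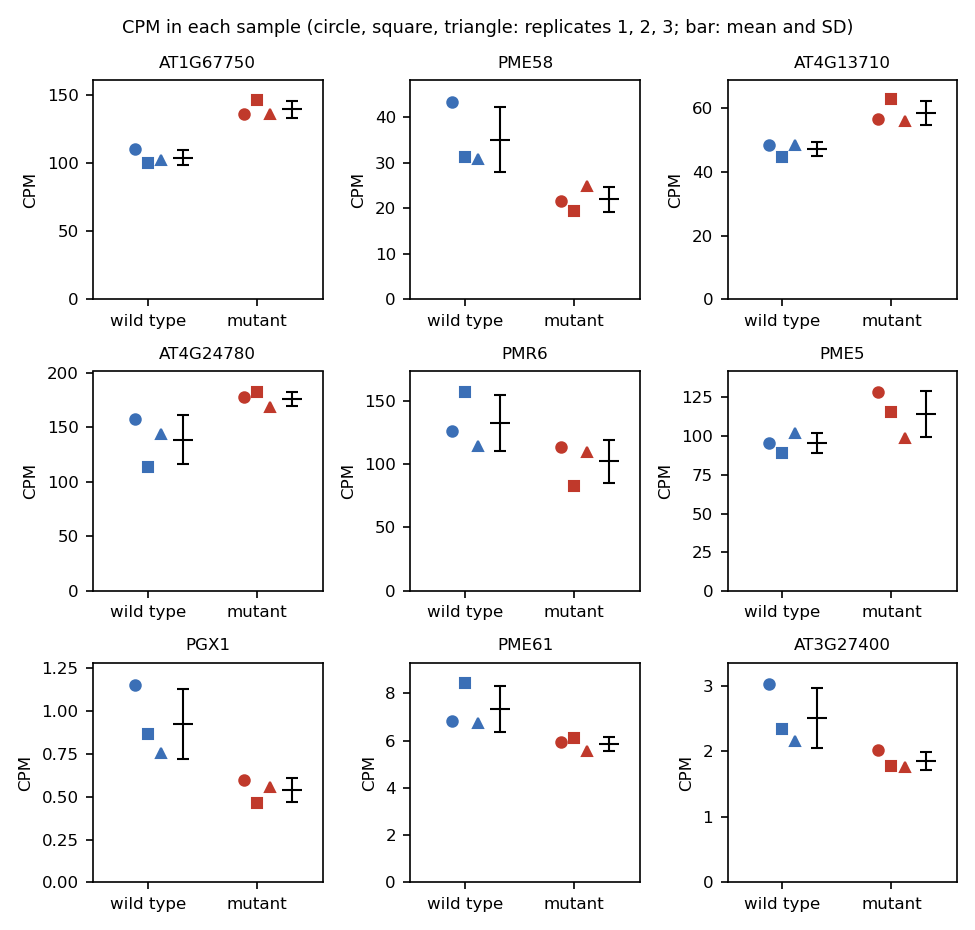
CPM (vertical axes, from 0) in each wild-type and mutant sample for the 9 members with an unadjusted p under 0.05 or with genotypes that do not overlap, and the mean with its SD (bars, n = 3). Mutant samples lie above all wild-type samples in *AT1G67750*, *AT4G13710* and *AT4G24780* and below them in *PME58*, *PMR6*, *PGX1*, *PME61* and *AT3G27400*, while *PME5* overlaps.

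**Figure D2:**
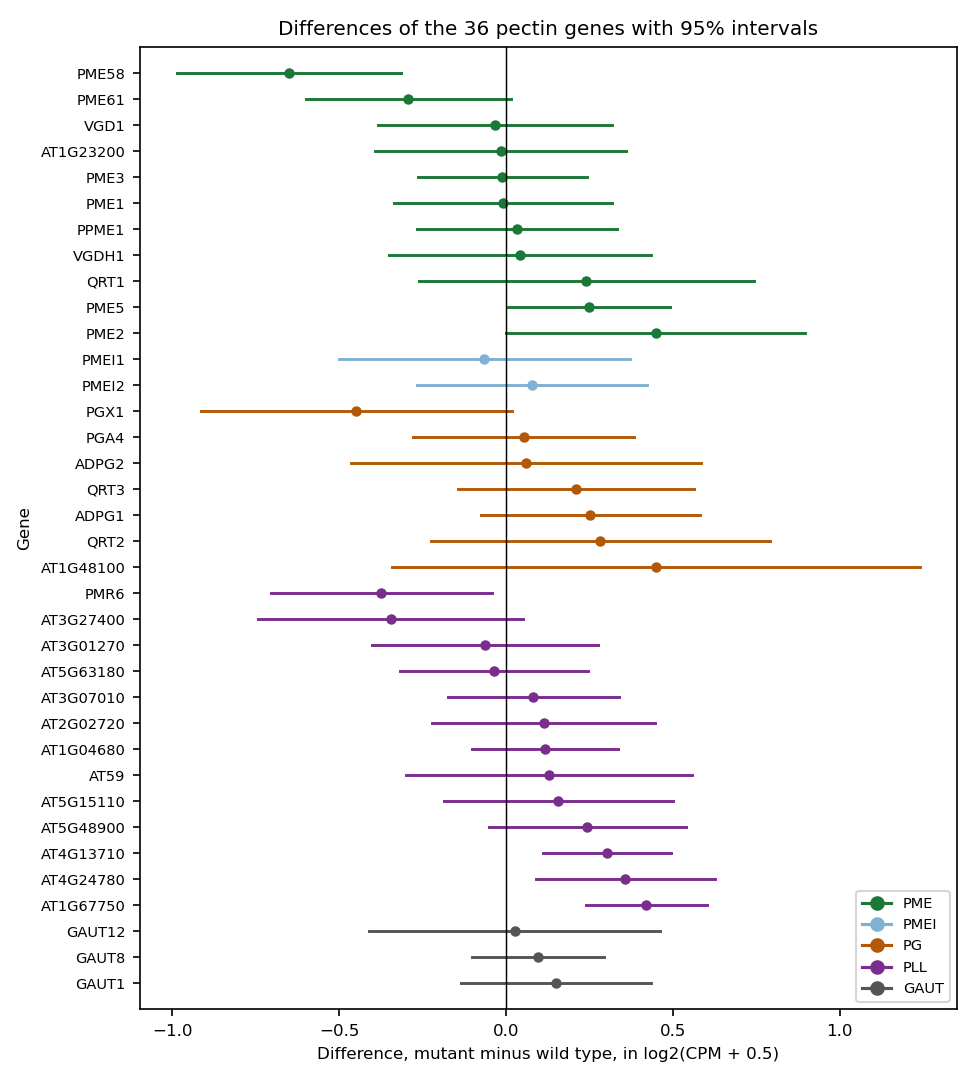
Difference of each of the 36 genes (points, mutant minus wild type, log2(CPM + 0.5)) with its 95% interval before adjustment (lines), coloured by family: methylesterases (PME), their inhibitors (PMEI), polygalacturonases (PG), pectate lyases and lyase-like genes (PLL) and galacturonosyltransferases (GAUT). The points run from -0.65 for *PME58* to 0.45 for *AT1G48100*, which has the widest interval.

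The 95% intervals in the plot of differences bound what was not detected. On the log2(CPM + 0.5) scale the interval lay within 1.5-fold in either direction for 24 of the 36 members and within 2-fold for 35. As this scale shrinks the change of low genes, the intervals of such genes do not bound their fold change in CPM. The ratio of the genotype means reached 1.5-fold in 2 members, *PME58* and *PGX1*, both lower in the mutant. By family the median difference was -0.01 over the 11 methylesterases, 0.21 over the 7 polygalacturonases, 0.12 over the 13 lyases and 0.10 over the 3 GAUT genes, beside 0.01 over all tested genes. Without wild-type replicate 2 these medians were -0.08, -0.04, -0.003 and 0.20 in the same order, and 6 of the 13 lyases were above 0 in place of 9. The 27 members with overlapping groups and an unadjusted p of 0.05 or more had differences from -0.06 to 0.45 and limma adjusted p from 0.537 to 0.994.

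The members listed here as pollen genes, by role and not by product name, shared their lowest sample. These 9 were *VGD1*, *VGDH1*, *PPME1*, *PGA4*, *AT59*, *AT5G15110*, *AT2G02720*, *PMEI1* and *PMEI2*. *AT59* was measured at 113, 73.7 and 130.0 CPM in wild type against 97.3, 126 and 115 CPM in the mutant. *AT5G15110* was at 121, 90.6 and 133 CPM and 112, 149 and 121 CPM. *AT2G02720* was at 58.9, 44.2 and 62.0 CPM and 52.7, 70.2 and 55.4 CPM. For all 9 the lowest of the 6 samples was wild-type replicate 2, where 17 of the 36 members, or 47.2%, and 23.5% of all tested genes had their lowest value. In that replicate the 9 genes were at 60.7% to 79.2% of the mean of wild-type replicates 1 and 3, with a median of 73.1%, while the other 27 members had a median of 97.2%. *AT3G01270* is not counted among the 9, although its product name is the same as that of *AT59*, *AT5G15110* and *AT2G02720*. It shared 77.52% of the longer coding sequence with *AT5G15110*, and it was also lowest in wild-type replicate 2, at 77.0%.

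Markers of late pollen and of the tapetum, the anther layer that feeds young pollen, were summed in the same samples. The 10 late pollen markers, among them *AGP6* and *AGP11*, summed to 863, 619 and 958 CPM in wild-type replicates 1, 2 and 3 and to 765, 895 and 751 CPM in the mutant replicates. The 11 tapetum markers with values, of 12 listed, summed to 381, 518 and 250.4 CPM and to 281, 444 and 330.2 CPM. Wild-type replicate 2 thus had the lowest late pollen sum and the highest tapetum sum. Most of the late pollen sum came from *AGP6*, *AGP11* and *PRK2*, with wild-type means of 347, 203 and 162 CPM. Of the 10 late pollen markers, 7 were lowest in wild-type replicate 2. *PRK2*, *ANX2* and *HAP2* were lowest in a mutant sample. The part of late pollen and tapetum cells in the members' values was not tested. None of the markers of either list was called, and their summed ranges overlapped between genotypes. The summed level of the 9 pectin genes was 4862, 3791 and 5239 CPM in wild type and 4399, 5154 and 4463 CPM in the mutant.

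**Figure D3:**
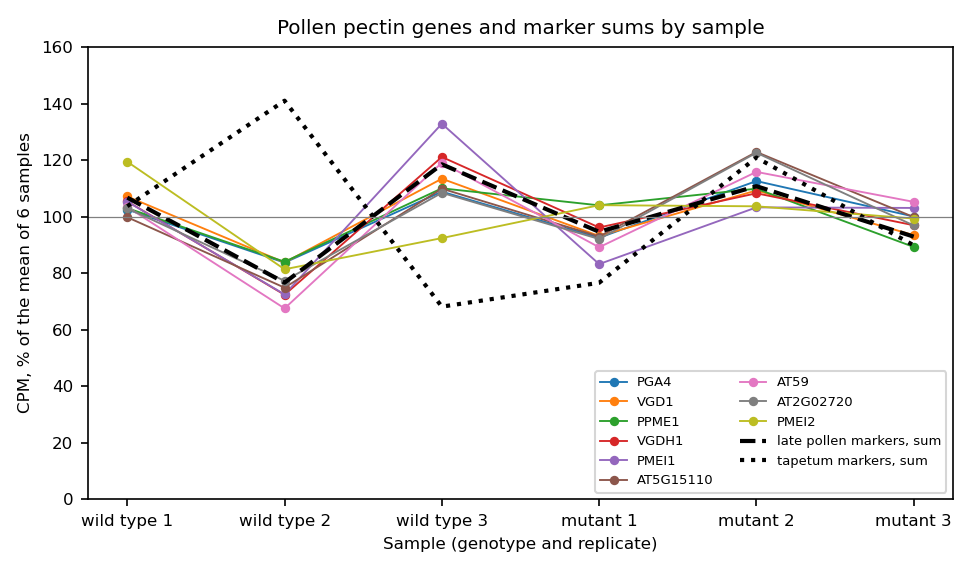
CPM of the 9 pollen members (thin lines) and summed CPM of late pollen markers (dashed) and tapetum markers (dotted) in each sample, as a percent of the mean of the 6 samples. Lines join the values of a gene and imply no order of samples. All 9 genes and the late pollen sum have their lowest value in wild-type replicate 2, where the tapetum sum is highest.

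The difference between genotypes in the 9 pollen genes ran from -0.06 for *PMEI1* to 0.16 for *AT5G15110*, with limma adjusted p from 0.835 to 0.978 and fold change intervals between 0.707 and 1.47. Without wild-type replicate 2 all 9 differences were below 0, from -0.30 for *PMEI1* to -0.003 for *AT5G15110*, beside 7 above 0 and 2 below with all samples, and none was called. Over the 6 samples their highest value was 1.31 to 1.83 times the lowest, and in all 9 the genotype means lay closer together than the SD of the wild-type replicates. The 6 ovule markers summed to 104.6 to 133 CPM in wild type and 105.0 to 113 CPM in the mutant, and the 6 markers of the carpel margin and transmitting tract to 73.9 to 81.0 CPM and 75.3 to 83.05 CPM. None of these 12 was called, and 5 of the 6 ovule markers had a difference below 0. An unadjusted p under 0.05 was found in 3 of the 6 carpel markers, or 50%, beside 9.31% of all tested genes. They went in opposite directions, which the sum does not show. *HEC3* and *SPT* were at 155% and 117% of their wild-type means in the mutant, and *NTT* was at 71.6%.

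Together the 36 genes took 7835, 6415 and 8029 CPM in wild type and 7141, 8227 and 7380.1 CPM in the mutant, or 0.641% to 0.823% of the nominal CPM total. The 9 pollen genes made up 59.1% to 65.3% of that sum in each sample. In wild type 16 members had a mean above 100 CPM, 12 lay between 10 and 100 CPM and 8 below 10 CPM. Levels of different genes were compared per kb of annotated exons. On this scale the 5 highest members in wild type were *PGA4* at 845 CPM per kb, *VGD1* at 733, *AT3G01270* at 531, *PPME1* at 437 and *VGDH1* at 256. The sixth, *AT1G04680*, was at 88.9 CPM per kb, and *PGX1* closed the order at 0.522. Of the 35 pairs of neighbours in this order, the ranges over the 6 samples did not overlap in 4, which were *VGD1* over *AT3G01270*, *PPME1* over *VGDH1*, *VGDH1* over *AT1G04680* and *AT4G13710* over *PME58*. Exon lengths join all annotated transcripts of a gene, which can lower its value per kb. This applies to *QRT3*, with 7 transcripts, and to *AT3G07010*, *AT4G24780*, *AT4G13710*, *QRT1* and *AT3G27400*, with 2 each.

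**Figure D4:**
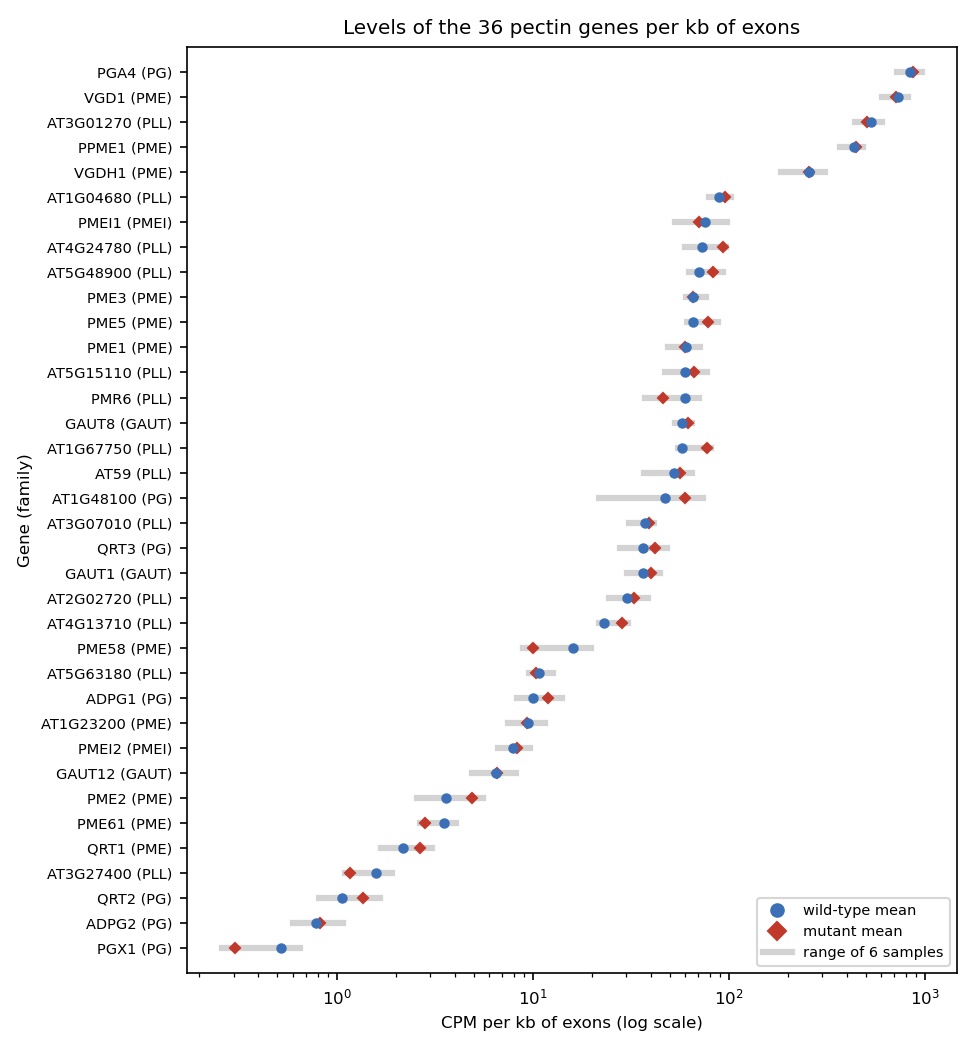
Mean level of the 36 genes in wild type (circles) and in the mutant (diamonds) in CPM per kb of annotated exons on a log axis, with the range of the 6 samples (grey bars) and the family in brackets. The 5 highest genes stand above the rest, and the wild-type means run from 845 for *PGA4* to 0.522 for *PGX1*.

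The wider pectin families were read in the same fit. A list was made of 287 annotated genes whose product name points to a pectin methylesterase or its inhibitor, a polygalacturonase, a lyase, an acetylesterase or a galacturonosyltransferase. It includes the members except *GAUT8*, whose product name has none of these terms. Of the 287 genes, 218 were in the table and 207 were tested. Part of these names also cover invertase inhibitors. No gene of this list was called higher and 1 was called lower, *AT3G59850*, annotated as a pectin lyase-like protein, a family name that spans lyases and polygalacturonases. This is 1 of 207, beside 0.564% of all tested genes called lower. The gene lies on chromosome 3 from 22109103 to 22111732 (TAIR10.1). It was measured at 3.63, 4.01 and 4.09 CPM in wild type against 0.458, 0.403 and 0.453 CPM in the mutant, with means of 3.91 ± 0.243 and 0.438 ± 0.031 CPM (SD, n = 3 each). Its mutant mean was thus 11.2% of that in wild type, and 7 reads stood behind its lowest value. The fitted difference, on a scale that shrinks the change of low genes, was -2.23 (SE 0.17, limma adjusted p = 0.0002). The gene was called under all 14 alternative settings, and the paper's own edgeR test called it lower too. Its coding sequence matched that of *QRT2*, the nearest of the polygalacturonase members, at 56.44% of the longer sequence.

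None of the 39 listed genes of pectin synthesis was called, which held the 15 GAUT genes, 10 GAUT-like genes, 4 pectin methyltransferases such as *QUA2*, 6 epimerases that supply galacturonic acid and 4 side chain enzymes. Their median difference was 0.00 and 2 had an unadjusted p under 0.05, or 5.13%, beside 9.31% of all tested genes. In a list of 14 genes of seed coat mucilage, *PME58* included, 13 were tested and none was called. An unadjusted p under 0.05 was found in 3, all lower in the mutant, or 23.1% beside 9.31% of all tested genes. *PME58* was among these 3 and was placed in the list with its values known, so the share is no separate evidence. The largest difference there was that of *BXL1*, a wall-modifying glycosidase, at 174 ± 19.4 CPM in wild type against 93.6 ± 46.3 CPM in the mutant (SD, n = 3 each), which did not pass the test (limma adjusted p = 0.257).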

How the data were processed

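Total polyA RNA of whole inflorescences was sequenced from 3 wild-type and 3 *bee1 bee3 stk ces-4* samples. The authors mapped reads with Bowtie2 to TAIR10, estimated expression with RSEM and deposited CPM per gene and sample, scaled by edgeR to an effective library size. The deposited table also holds the authors' log2 fold changes, p-values and FDR values, which were not used here. No column of per-sample values was left out, and 2 of 21801 rows have no values. Read depths on listed genes, derived from the CPM worth of 1 read, were 15.9 to 21.2 M.

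As the values are CPM and not counts, log2(CPM + 0.5) was fitted with limma 3.58.1 (trend, two-sided, genotype only, all 6 samples, R 4.3.3) for 21287 genes above 0.5 CPM in at least 3 samples, with Benjamini-Hochberg adjustment over all of them. The fit was tested on simulated data. Positions, exon lengths and sequences came from TAIR10.1 (RefSeq) by locus identifier, which matched 36 of 36 members, and 21101 of the tested genes. Alternatives were pseudocounts of 0.1 and 1 CPM, no filter, a filter at 1 CPM, upper quartile scaling, equal column totals, a replicate block, no mean-variance trend and leaving out each sample. Values in every sample are given for members with an unadjusted p under 0.05, members whose groups do not overlap and the highest and lowest member of each family, and called genes of the wider lists are named. A few further members, such as the pollen genes, were named for their role. The members and lists were chosen with earlier results of these data known.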

Additional observations from a re-analysis of the deposited data

How the results depend on the processing

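No member was called under any of the 14 alternative settings. Of the 36 members, 18 kept the sign of their difference under every setting, and 18 had the other sign under at least 1, the largest of these being *AT1G48100* at 0.45. Over all tested genes 28 were called higher and 120 lower. With the replicate block these counts were 5 and 59, and without the mean-variance trend 17 were called higher. Leaving out each sample in turn gave 8 to 37 called higher and 51 to 122 called lower, with the fewest higher without mutant replicate 1 and the fewest lower without wild-type replicate 1. Of the wider pectin genes 0 were called higher, and 0 to 1 when samples were left out: *AT3G43270*, whose values have a limma adjusted p of 0.173 with all samples, was called without wild-type replicate 1 (limma adjusted p = 0.0442, range over its alternatives 0.0442 to 0.533). The lower count of 1 did not move under any setting. Same-numbered samples did not deviate together (r = -0.11, -0.16 and -0.10 across genes for replicates 1, 2 and 3). These values cannot tell whether same-numbered samples were grown or handled together. Without wild-type replicate 2 the groups of 11 members did not overlap, beside 23.8% of all tested genes. Leaving out each sample was planned for the calls, and this count was added to it after seeing the data. Depth limits *PGX1* most, with as few as 8 reads behind a value. On the log2(CPM + 0.5) scale the 95% intervals of 12 members reach beyond 1.5-fold.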
